A study of Homo sapiens with 21 samples.

Results

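The genes described here are 9 components of MHC class I antigen presentation: the heavy chains HLA-B, HLA-C, HLA-E and HLA-F, the light chain B2M, the peptide-loading proteins TAP1, TAP2 and TAPBP, and the regulator NLRC5. They were taken by name, as the rows of the count tables whose Ensembl identifier maps to these symbols. That rule uses no measured values, but the set was proposed with earlier results of these data known. Each matched 1 row, so they are 9 of 60668 gene rows. All 9 passed the filter on low counts in both tables. The cells were HCC1806, an established human cell line of triple-negative breast cancer, kept in adherent culture. RNA-seq counts came from 21 libraries in 7 groups of 3. The first table held 3XCTL (genotype "control"), 3xSR, which the series title gives as cells overexpressing SRSF2, SRSF3 and SRSF7, and MYC-OE. The second held 1xCtrl ("single plasmid control"), 1xSRSF2 ("SRSF2 OE"), 1xSRSF3 ("SRSF3 OE") and 1xSRSF7 ("SRSF7 OE"). The labels name neither the vectors nor whether a line was a clone or a pool, and MYC-OE was compared with 3XCTL because that is the control of its table. Each overexpressing line was set against its own control. Nothing in the labels says that replicates were separate cultures, so the p-values measure the spread between these libraries, which may be technical.

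Class I molecules show peptides from inside the cell to CD8 T cells. Peptides cut by the proteasome enter the endoplasmic reticulum through the TAP1-TAP2 transporter, are loaded with the help of tapasin (TAPBP) onto a heavy chain paired with beta-2-microglobulin, and travel to the surface. NLRC5 is the transactivator that drives transcription of heavy chain, B2M and TAP1 genes, and interferon gamma is a main inducer of the pathway. MYC is a transcription factor, and SRSF2, SRSF3 and SRSF7 are serine/arginine-rich splicing factors. Tumours of epithelial origin often carry a reduced level of the pathway.

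Total counts per library lay between 143269192 and 303323552. Levels are given as CPM, counts relative to the TMM-scaled library size, and tests are edgeR quasi-likelihood tests with Benjamini-Hochberg adjustment over all genes of the table, called at an adjusted p under 0.05. MYC was higher in the libraries labelled MYC-OE (log2 fold change 0.90, SE 0.047, adjusted p = 5.7e-08), and also in those labelled 3xSR (log2 fold change 0.75, SE 0.047, adjusted p = 4.0e-07), 1xSRSF3 (0.26) and 1xSRSF7 (0.27). SRSF3 and SRSF7 were higher in the single lines named for them and in 3xSR, with log2 fold changes between 0.26 and 0.49. Both were also higher in the libraries labelled 1xSRSF2, SRSF3 at 458 ± 5.92 against 375 ± 35.1 CPM (SD, n = 3; log2 fold change 0.30, edgeR adjusted p = 0.0079) and SRSF7 at 426 ± 21.9 against 364 ± 5.302 CPM (0.24, edgeR adjusted p = 0.0068). SRSF7 was at 434 ± 7.62 CPM in 1xSRSF7, and its difference between these 2 lines was not called (-0.023, 95% interval -0.14 to 0.095). SRSF2 was not higher in the lines named for it: it stood at -0.16 (adjusted p = 0.098) in the libraries labelled 1xSRSF2 and at -0.064 (adjusted p = 0.39) in those labelled 3xSR. In MYC-OE SRSF2 was lower, at 291 ± 10.3 against 404 ± 18.3 CPM in 3XCTL (SD, n = 3). In 1xSRSF7 it was lower too, at 340 ± 7.80 against 445 ± 26.2 CPM in 1xCtrl. Neither group overlapped its control, and SRSF2 was the 1 targeted gene called lower in each. Whether the tables count introduced sequence is not given in the sources used here, and the names 1xSRSF2 and 3xSR below mean the libraries so labelled. The basal epithelial marker KRT5 lay between 1571 and 2661 CPM. PTPRC, which marks leukocytes, stayed at or under 0.537 CPM, CD3E at or under 0.0254, and MS4A1 was at 0 in every library. The summed level of the 7 leukocyte markers was above the controls in all 5 lines. It was 35.1 to 38.8 CPM in MYC-OE and 18.01 to 21.9 in 3xSR against 7.84 to 13.3 in 3XCTL, and 21.7 to 23.9 in 1xSRSF2, 29.7 to 33.3 in 1xSRSF3 and 22.7 to 26.8 in 1xSRSF7 against 10.97 to 19.3 in 1xCtrl. CD68, a lysosomal gene not limited to leukocytes, made up most of it (in MYC-OE 32.3 to 36.2 against 5.94 to 10.6 CPM), and the part of this list in the results below was not tested.

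Libraries also differed in how their counts varied with the GC content of genes. Within 1xCtrl, replicate 2 had a slope of 0.23 log2 units per 10 points of GC, against -0.11 and -0.22 in replicates 1 and 3. Within 3XCTL, replicate 2 was at -0.07 and the others at 0.18 and 0.16. MYC-OE libraries lay between 0.13 and 0.19, and 3xSR libraries between -0.12 and -0.05. Among the single lines, 1xSRSF3 lay between -0.18 and -0.12, 1xSRSF2 between -0.05 and 0.00098, and 1xSRSF7 between -0.04 and 0.13. Where slopes were alike within a group, a technical trend cannot be told apart from a difference between lines. The members are mostly GC-rich (54.8% to 62.7% of the longest transcript, but 40.6% for B2M and 49.1% for TAP2), and their values in 1xCtrl replicate 2 and 3XCTL replicate 2 often stood apart from the other 2 controls. Each member's result against a control was therefore recomputed with the GC trend of every library removed, and without each library. Those values stand beside the results whose call they change. For differences between lines or between effects, only members called in the main fit were followed singly. Members called there only under an alternative enter as counts. Signs that turned for values not called are given with the processing alternatives at the end. The part of GC content in the uncorrected differences was not tested otherwise.

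On GRCh38 with the GENCODE 29 annotation, 7 of the 9 genes lie in the MHC region of chromosome 6. HLA-F is at chr6:29722775-29738528 and HLA-E at chr6:30489467-30494205, both on the plus strand. HLA-C (chr6:31268749-31272130) and HLA-B (chr6:31269491-31357188) are on the minus strand, and the annotated span of HLA-B reaches into HLA-C, so that 35 exon bases are shared. TAP2 (chr6:32821833-32838780), TAP1 (chr6:32845209-32853978) and TAPBP (chr6:33299694-33314387) follow on the minus strand. B2M is at chr15:44711487-44718877 and NLRC5 at chr16:56989485-57083531, both plus. Of 150-base windows of each member's longest transcript, none occurred in another gene's annotated transcripts, except for 34.6% of those of TAP2. These are shared with the readthrough gene AL669918.1, which held 0.161% to 1.39% of the summed counts of both genes. At 50 bases, 2.54% of HLA-B, 6.71% of HLA-C, 5.13% of HLA-E and 1.70% of HLA-F windows recurred elsewhere. So did 1.07% of TAP1, 35.8% of TAP2 and 6.09% of TAPBP windows, those of TAPBP in 380 other genes. How reads from shared stretches were assigned, and how the cell line's own alleles aligned to the reference, is not given in the sources used here, so levels of the heavy chains carry that uncertainty.

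Against their own controls the members gave 45 tests, of which 9 were called higher, 11 lower and 25 not called. In 3xSR 4 of the 9 were called, 1 higher and 3 lower, where 29.0% of 23160 genes were called, 15.3% higher and 13.7% lower. MYC-OE gave 5, of which 4 were higher and 1 lower, with 35.3% of genes called, 18.0% higher and 17.3% lower. In the libraries labelled 1xSRSF2 4 were called, all lower, with 23.5% of 24362 genes called, 11.6% higher and 11.9% lower. In 1xSRSF3 4 were called, 2 in each direction, with 29.2% of genes called, 15.0% higher and 14.1% lower. In 1xSRSF7 3 were called, 2 higher and 1 lower, with 17.3% of genes called, 9.03% higher and 8.26% lower. The median log2 fold change over the 9 members was -0.07 in 3xSR, 0.13 in MYC-OE, -0.25 in 1xSRSF2, -0.17 in 1xSRSF3 and 0.031 in 1xSRSF7, and over all genes it lay between -0.03 and -0.0038. The genes did not move as a block. HLA-B and B2M were called in both directions depending on the line, HLA-C, HLA-E and HLA-F were called higher or not at all, TAPBP and TAP1 lower or not at all, and NLRC5 was called lower in each of the 5 lines. Lines of one table share their control libraries, so these counts are not independent of each other.

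**Figure D1:**
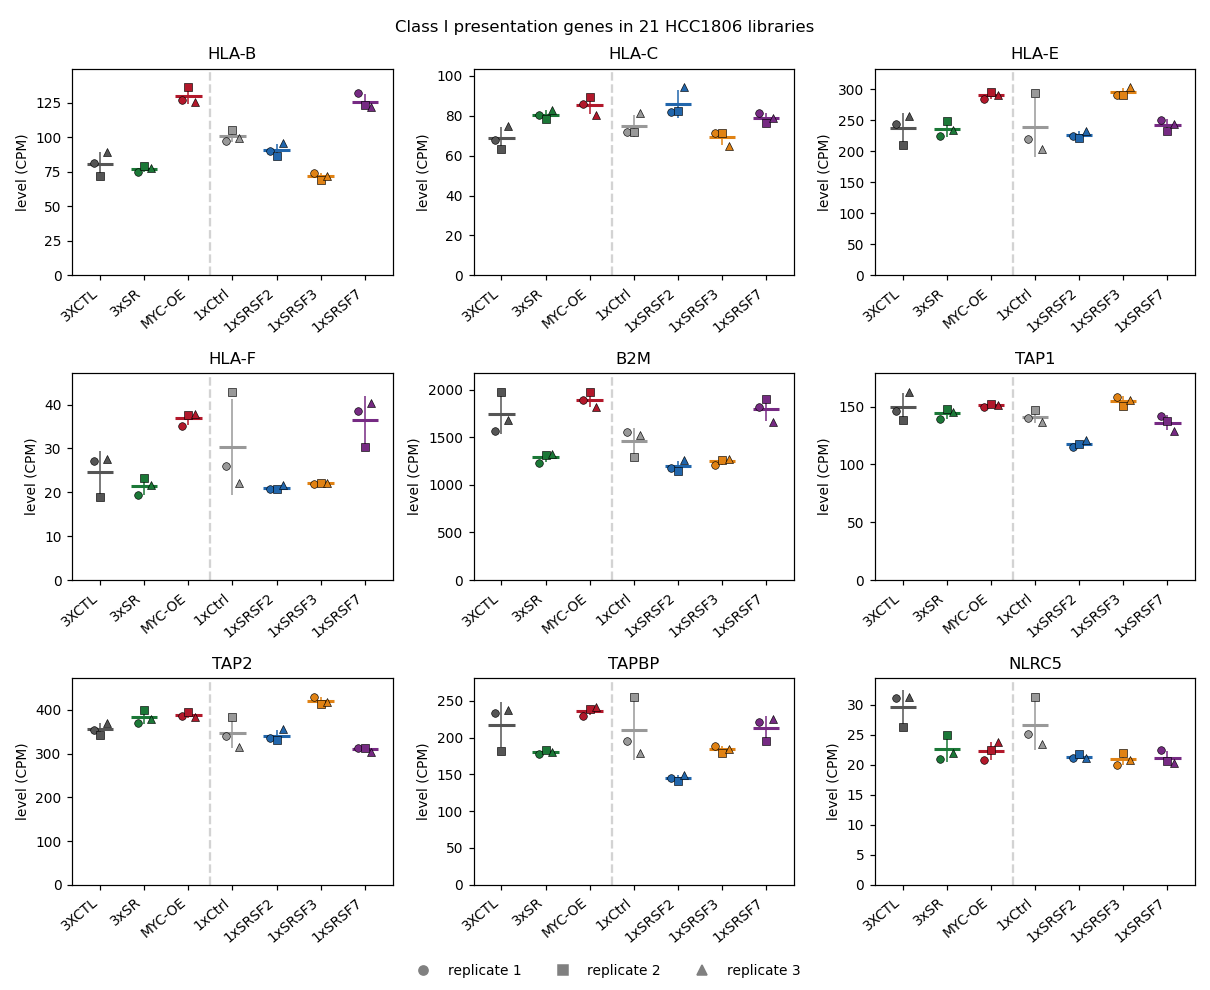
Level of each member in CPM (linear axis from 0) in the 21 libraries, by group; symbols mark the replicate, bars the group mean and vertical lines 1 SD (n = 3), and the dashed line separates the 2 tables. The group means of HLA-B and HLA-F are highest in MYC-OE and 1xSRSF7, B2M is lowest in 1xSRSF2, 1xSRSF3 and 3xSR, and 1xCtrl replicate 2 stands above the other 1xCtrl libraries for HLA-E, HLA-F, TAPBP and NLRC5.

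**Figure D2:**
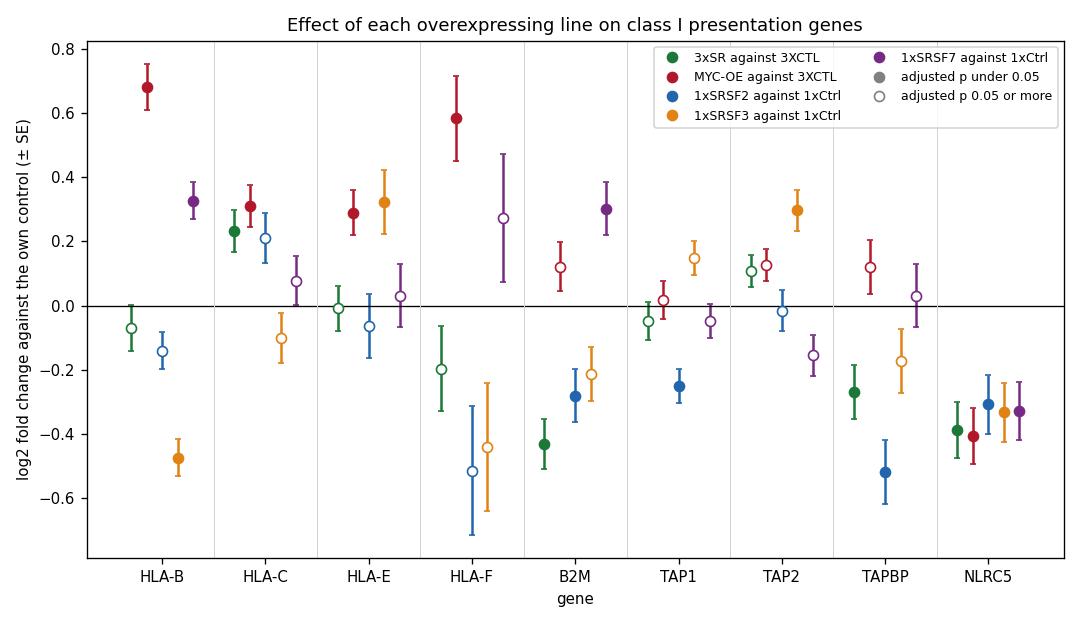
log2 fold change of each member against the control of its table, with 1 SE; filled points have an adjusted p under 0.05. All 5 NLRC5 points lie below 0, while HLA-B runs from -0.47 in 1xSRSF3 to 0.68 in MYC-OE.

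HLA-B, one of the classical heavy chains that present peptide to CD8 T cells, had the highest log2 fold change of any member against a control, in MYC-OE, and was called in both directions. Its level in 3XCTL was 81.7, 71.9 and 89.3 CPM in replicates 1, 2 and 3, and in MYC-OE it was 127, 136 and 126 CPM. Every MYC-OE library was above every control library. The increase was 1.603-fold (log2 fold change 0.68, SE 0.072, adjusted p = 1.9e-05), and it was called under every alternative processing, with the log2 fold change between 0.60 and 0.76. In bulk RNA, a change in the number of expressing cells and a change in RNA per cell cannot be told apart, here and below. In 3xSR HLA-B was at 74.8, 78.9 and 77.5 CPM, inside the range of the controls (log2 fold change -0.07, SE 0.072, adjusted p = 0.51). Without 3XCTL replicate 2, the lowest control, it was called lower (-0.15, adjusted p = 0.042), and with the GC trend removed its sign turned (0.12, adjusted p = 0.057).

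In the second table the 1xCtrl libraries held 97.4, 105 and 99.8 CPM of HLA-B. In 1xSRSF3 it fell to 74.1, 69.5 and 72.04 CPM, 1.39-fold lower (log2 fold change -0.47, SE 0.058, adjusted p = 5.6e-05). In 1xSRSF7 it rose to 133, 124 and 122 CPM, 1.25-fold higher (log2 fold change 0.33, SE 0.058, adjusted p = 0.0023). Neither group overlapped the controls, so these 2 lines lay on opposite sides of their shared control. The 1xSRSF3 call stood under every alternative, between -0.59 and -0.36. The 1xSRSF7 call was lost with the GC trend removed (0.25, adjusted p = 0.065). In the libraries labelled 1xSRSF2 HLA-B was at 90.4, 86.4 and 95.7 CPM, below the controls in each library but not called (log2 fold change -0.14, SE 0.058, adjusted p = 0.098). It was called there with total counts alone (-0.20, adjusted p = 0.018), without 1xCtrl replicate 1 (-0.22) and without 1xSRSF2 replicate 3 (-0.23). Across the 7 groups its mean ran from 71.9 ± 2.32 CPM (SD, n = 3) in 1xSRSF3 to 129.8 ± 5.71 CPM in MYC-OE. In the order of means, 3XCTL overlapped its neighbours 3xSR and 1xSRSF2, and 1xSRSF7 overlapped MYC-OE. Levels set across the 2 tables were scaled together, but the tables' own difference cannot be told apart from that of their groups.

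HLA-C is also a classical heavy chain. It was at 68.0, 63.3 and 74.7 CPM in 3XCTL, 80.5, 78.4 and 82.98 CPM in 3xSR and 85.7, 89.5 and 80.5 CPM in MYC-OE. Both lines lay above all controls, by 1.18-fold in 3xSR (log2 fold change 0.23, SE 0.065, adjusted p = 0.019) and 1.24-fold in MYC-OE (log2 fold change 0.31, SE 0.065, adjusted p = 0.0028). HLA-C is the most GC-rich member, and the 2 values diverged with the GC trend removed, to 0.48 in 3xSR (adjusted p = 0.012) and 0.21 in MYC-OE (adjusted p = 0.18), where the MYC-OE call was lost. The 3xSR call was also lost without 3XCTL replicate 1 (0.21, adjusted p = 0.085) and without 3xSR replicate 3 (0.21, adjusted p = 0.079). Among the single lines HLA-C was not called. Its 1xCtrl range was 71.6 to 81.4 CPM, and the lines stood at 81.9 to 94.2 in 1xSRSF2, 64.7 to 71.4 in 1xSRSF3 and 76.2 to 81.5 in 1xSRSF7. With the GC trend removed its sign turned in 1xSRSF3, from -0.10 to 0.025, adjusted p = 0.95, and in 1xSRSF7, from 0.077 to -0.12, adjusted p = 0.75. It was called in 1xSRSF2 without 1xCtrl replicate 3 (0.24, adjusted p = 0.032) and in 1xSRSF3 with total counts alone (-0.21, adjusted p = 0.045). HLA-C thus did not follow HLA-B in 3xSR or 1xSRSF3 in its calls, and the difference between the 2 genes was not tested.

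HLA-E presents leader peptides of other class I chains to the NKG2A receptor of NK cells. It was at 244, 210.5 and 257 CPM in 3XCTL and 284, 295 and 290.5 CPM in MYC-OE, 1.22-fold higher with no overlap (log2 fold change 0.29, SE 0.07, adjusted p = 0.0068). This call stood under every alternative, between 0.21 and 0.35. In 3xSR it was at 224, 249 and 233 CPM, among the controls (log2 fold change -0.0079, SE 0.07, adjusted p = 0.95), and with the GC trend removed its sign turned (0.069, adjusted p = 0.28). The 1xCtrl values were wide, at 219, 293 and 203 CPM, with replicate 2 high. The 1xSRSF3 libraries at 291, 290.0 and 303 CPM were called higher (log2 fold change 0.32, SE 0.10, adjusted p = 0.026), although replicates 1 and 2 lay below that one control. Without 1xCtrl replicate 2 the value was 0.47 (adjusted p = 3.0e-05). Without any other single library of these groups the call was lost (adjusted p up to 0.34), as it was with total counts alone, with no filter and with the 2 groups fitted alone. HLA-E lay at 222 to 233 CPM in 1xSRSF2 and 232 to 250.3 CPM in 1xSRSF7, not called in either. Without 1xCtrl replicate 2 it was called higher in 1xSRSF7 (0.21, adjusted p = 0.014).

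HLA-F, a nonclassical heavy chain that can reach the surface without peptide, was the least abundant of the 4 chains. It held 27.2, 18.9 and 27.6 CPM in 3XCTL and 35.1, 37.6 and 37.9 CPM in MYC-OE, 1.499-fold higher (log2 fold change 0.58, SE 0.13, adjusted p = 0.007), and the call stood under every alternative. In 3xSR it was at 19.3, 23.3 and 21.7 CPM and not called (log2 fold change -0.20, SE 0.13, adjusted p = 0.31). Without 3XCTL replicate 2, the low control, it was called lower (-0.35, adjusted p = 0.0012). The 1xCtrl libraries spread from 22.1 to 42.9 CPM, and edgeR called no line of the second table. The level was 20.8 to 21.6 CPM in 1xSRSF2, 21.8 to 22.2 CPM in 1xSRSF3 and 30.3 to 40.5 CPM in 1xSRSF7. Without 1xCtrl replicate 2, HLA-F was called higher in 1xSRSF7 (0.61, adjusted p = 0.0016). DESeq2 called it lower in 1xSRSF2 (-0.52, adjusted p = 0.023). With the GC trend removed it was called lower in 1xSRSF2 (-0.47, adjusted p = 0.0069) and 1xSRSF3 (-0.32, adjusted p = 0.045). Leaving out 1xCtrl replicate 3 also made these 2 calls (-0.74 and -0.67). Its exons share 1236 bases with genes on the opposite strand, among them HLA-F-AS1. Exons of HLA-B share 542 such bases (AL671883.2) and those of TAP1 456 (PSMB8-AS1). The strand setting of the counting is not given in the sources used here.

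The stretches just before the transcription start are shown for 5 members, picked after their expression values were seen. Whether these stretches bear on the responses was not tested. Each holds the 200 bases before the RefSeq start on GRCh38.p14, 5′ to 3′ on the gene's own strand. Capitals mark matches, on either strand, to the CCAAT box (CCAAT), the interferon-stimulated response element (ISRE), the gamma-activated site (GAS, TTCNNNGAA), the kappa-B site, the E-box bound by MYC (CACGTG) or the cyclic AMP response element (TGACGTCA).
HLA-B (chr6:31357180-31357379, minus strand): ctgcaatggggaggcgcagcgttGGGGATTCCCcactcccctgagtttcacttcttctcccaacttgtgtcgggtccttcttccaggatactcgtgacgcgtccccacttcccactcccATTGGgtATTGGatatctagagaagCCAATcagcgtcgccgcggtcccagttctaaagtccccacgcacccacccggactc
HLA-C (chr6:31272093-31272292, minus strand): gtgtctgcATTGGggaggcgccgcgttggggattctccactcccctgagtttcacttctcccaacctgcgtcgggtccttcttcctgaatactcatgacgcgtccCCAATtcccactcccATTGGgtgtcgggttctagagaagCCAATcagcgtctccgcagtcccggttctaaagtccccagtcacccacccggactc
HLA-F (chr6:29723234-29723433, plus strand): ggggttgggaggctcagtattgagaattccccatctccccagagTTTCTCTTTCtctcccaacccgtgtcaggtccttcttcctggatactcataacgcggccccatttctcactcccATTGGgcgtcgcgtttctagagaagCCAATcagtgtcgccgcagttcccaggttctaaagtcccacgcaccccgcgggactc
B2M (chr15:44711317-44711516, plus strand): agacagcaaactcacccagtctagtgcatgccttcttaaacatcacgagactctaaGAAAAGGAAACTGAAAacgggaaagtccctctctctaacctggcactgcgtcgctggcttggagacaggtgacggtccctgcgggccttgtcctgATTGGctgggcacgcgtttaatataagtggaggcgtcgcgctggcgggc
TAP1 (chr6:32853705-32853904, minus strand): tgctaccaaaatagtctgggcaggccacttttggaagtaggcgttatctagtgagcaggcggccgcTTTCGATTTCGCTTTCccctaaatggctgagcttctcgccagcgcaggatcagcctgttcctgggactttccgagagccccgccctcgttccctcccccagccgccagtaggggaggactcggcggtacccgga

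RefSeq windows of 300 bases, from 250 before to 50 after the start, were found for 7 of the 9 members, HLA-E and NLRC5 having no entry in the table used. TAP1 has 2 such windows, of which the first is shown. The ISRE letters occurred in 5 of the 7 genes (HLA-F, B2M, TAP1, TAP2 and TAPBP) and in 3.57% of all 35116 windows. In B2M, TAP1 and TAPBP 2 ISRE matches overlap each other, 6 bases apart. The CCAAT letters occurred in 5 of the 7 and in 34.6% of all windows. The kappa-B letters occurred in HLA-B alone among the members, at -177 from the start, and in 0.0769% of all windows. GAS letters were found in 1 gene, in the second window of TAP1 (7.66% of all windows). The E-box and the cyclic AMP element were found in none of the 7, against 7.26% and 1.85% of all windows. These are matches of letters and show no binding. HLA-B and HLA-C both hold CCAAT matches at -56, and neither window holds the exact ISRE letters. A site that departs from the searched letters in any base is not counted. A gene without a match, for ISRE, kappa-B or another motif, may thus still hold a variant of the element.

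B2M, the invariant light chain needed by every class I heavy chain, was the most abundant member and was called in 3 lines. In 3XCTL it was at 1568, 1975 and 1679 CPM and in 3xSR at 1233, 1310.3 and 1329 CPM. All 3xSR libraries lay below all controls, 1.35-fold lower (log2 fold change -0.43, SE 0.077, adjusted p = 0.0013). The fall was called under every alternative, between -0.53 and -0.33, and with the GC trend removed it was -0.53. In MYC-OE B2M was at 1895, 1972 and 1814 CPM, overlapping the controls, and not called (log2 fold change 0.12, SE 0.077, adjusted p = 0.25). It was called there with the GC trend removed (0.15, adjusted p = 0.035) and without 3XCTL replicate 2 (0.22, adjusted p = 0.0053).

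For the single lines, B2M was at 1554, 1298 and 1527 CPM in 1xCtrl, here with replicate 2 as the low library. It was lower in the libraries labelled 1xSRSF2, at 1174, 1150.1 and 1259 CPM (log2 fold change -0.28, SE 0.083, adjusted p = 0.026). In 1xSRSF7 it was higher, at 1818, 1905 and 1659 CPM (log2 fold change 0.30, SE 0.083, adjusted p = 0.024). Neither group overlapped 1xCtrl. The 1xSRSF2 call was lost with the replicate block (-0.28, adjusted p = 0.052). The 1xSRSF7 call was lost with upper-quartile scaling (adjusted p = 0.07) and with the 2 groups fitted alone (adjusted p = 0.084). In 1xSRSF3 B2M stood at 1208, 1257 and 1275 CPM, below every control library but short of the threshold (log2 fold change -0.21, SE 0.083, adjusted p = 0.071). Of its 16 alternatives 10 called it lower there, among them removal of the GC trend (-0.29, adjusted p = 0.0013).

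The TAP transporter, which carries peptides into the endoplasmic reticulum, had each of its subunits called in 1 line. TAP1 was at 147, 139 and 163 CPM in 3XCTL, 139 to 148 CPM in 3xSR and 149.6 to 152 CPM in MYC-OE, with neither line called. Its log2 fold change in 3xSR was -0.049 (SE 0.059, adjusted p = 0.58), and with the GC trend removed the sign turned and it was called higher (0.11, adjusted p = 0.045). The sign of its value turned with the scaling in MYC-OE (0.017 in the main analysis and -0.018 with total counts alone). In the second table it was 140.3, 147 and 137 CPM in 1xCtrl and 115, 118 and 121 CPM in 1xSRSF2, where each library was below each control. This was a fall of 1.19-fold (log2 fold change -0.25, SE 0.053, adjusted p = 0.0041), called under every alternative. In 1xSRSF3 TAP1 was at 159, 150.5 and 156 CPM, above all controls but not called (log2 fold change 0.15, SE 0.053, adjusted p = 0.052), and with the GC trend removed it was called (0.24, adjusted p = 0.023), as it was without 1xCtrl replicate 2 (0.15, adjusted p = 0.03). In 1xSRSF7 it was at 129 to 142 CPM, among the controls.

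TAP2, the partner of TAP1 in the transporter, was called in 1xSRSF3 and in no other line. It was at 339, 384 and 316 CPM in 1xCtrl and 430.0, 413 and 419 CPM in 1xSRSF3, without overlap (log2 fold change 0.30, SE 0.064, adjusted p = 0.0035). The control replicate 2 was again the high one. The call was lost with the 2 groups fitted alone (0.26, adjusted p = 0.081) and without any single library other than 1xCtrl replicate 2, with adjusted p up to 0.10. Without that library it was 0.35 (adjusted p = 1.6e-04). TAP2 ranged over 342 to 371 CPM in 3XCTL, 370.0 to 399 in 3xSR, 383 to 396 in MYC-OE, 330.1 to 356 in 1xSRSF2 and 304 to 313 in 1xSRSF7. The MYC-OE libraries were above all controls yet not called (log2 fold change 0.13, SE 0.05, adjusted p = 0.065), and 5 alternatives called them: upper-quartile scaling, DESeq2, limma-voom, removal of the GC trend and leaving out 3XCTL replicate 3. In 1xSRSF7 TAP2 was called lower without 1xCtrl replicate 3 (-0.24, adjusted p = 0.035). That only 1 line was called for TAP2 is no test of a difference from the other lines. Adding the counts of the readthrough gene changed no TAP2 call.

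TAPBP encodes tapasin, which holds empty class I molecules at the transporter until peptide binds. Its level was 196, 256 and 179 CPM in 1xCtrl and 145, 141 and 149.6 CPM in the libraries labelled 1xSRSF2. These were the lowest TAPBP values of any group, and the fall of 1.43-fold (log2 fold change -0.52, SE 0.10, adjusted p = 0.0022) was called under every alternative, between -0.66 and -0.37. In the first table it was 233, 182 and 237 CPM in 3XCTL and 178, 183 and 180.0 CPM in 3xSR. Here 3XCTL replicate 2 lay within the 3xSR range. The value was called (log2 fold change -0.27, SE 0.083, adjusted p = 0.03), but it was -0.10 (adjusted p = 0.085) with the GC trend removed, it was lost with the 2 groups fitted alone, and 5 of the 6 analyses with a library left out lost it, the exception being without 3XCTL replicate 2 (-0.38, adjusted p = 1.1e-05). TAPBP was not called in MYC-OE (230.0 to 242 CPM), 1xSRSF3 (179 to 188 CPM) or 1xSRSF7 (195 to 225 CPM). Single alternatives called it: 0.12 in MYC-OE with the GC trend removed, -0.32 in 1xSRSF3 without 1xCtrl replicate 3, and 0.20 in 1xSRSF7 without 1xCtrl replicate 2.

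NLRC5, the class I transactivator, was called lower in all 5 lines. In 3XCTL it was at 31.2, 26.3 and 31.3 CPM, in 3xSR at 20.95, 24.9 and 21.9 CPM and in MYC-OE at 20.8, 22.5 and 23.8 CPM. Both lines were below every control, 1.31-fold in 3xSR (log2 fold change -0.39, SE 0.087, adjusted p = 0.0055) and 1.33-fold in MYC-OE (log2 fold change -0.41, SE 0.087, adjusted p = 0.0032). Both calls stood under every alternative, and removal of the GC trend gave -0.23 and -0.42. In MYC-OE the fall of NLRC5 stood beside called rises of 4 heavy chains, among them HLA-B, so the regulator and these genes did not move the same way in that line.

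In the second table NLRC5 was at 25.2, 31.4 and 23.4 CPM in 1xCtrl, 21.2, 21.8 and 21.2 CPM in 1xSRSF2, 19.99, 21.98 and 20.8 CPM in 1xSRSF3 and 22.5, 20.6 and 20.3 CPM in 1xSRSF7. No line overlapped the controls. The log2 fold changes were -0.31 (SE 0.091, adjusted p = 0.026), -0.33 (SE 0.091, adjusted p = 0.014) and -0.33 (SE 0.091, adjusted p = 0.025). Control replicate 2 was high, and without it they were -0.19, -0.22 and -0.19, still called, with adjusted p between 0.018 and 0.039. All 3 calls were lost with the 2 groups fitted alone, with adjusted p between 0.074 and 0.11. They were also lost without each single 1xSRSF2 library, without 1xSRSF3 replicate 1, and without 1xSRSF7 replicate 2 or 3. With the GC trend removed all 3 were called, between -0.35 and -0.21. The 3 comparisons share the same control libraries, so the shared direction is not 3 separate observations.

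**Figure D3:**
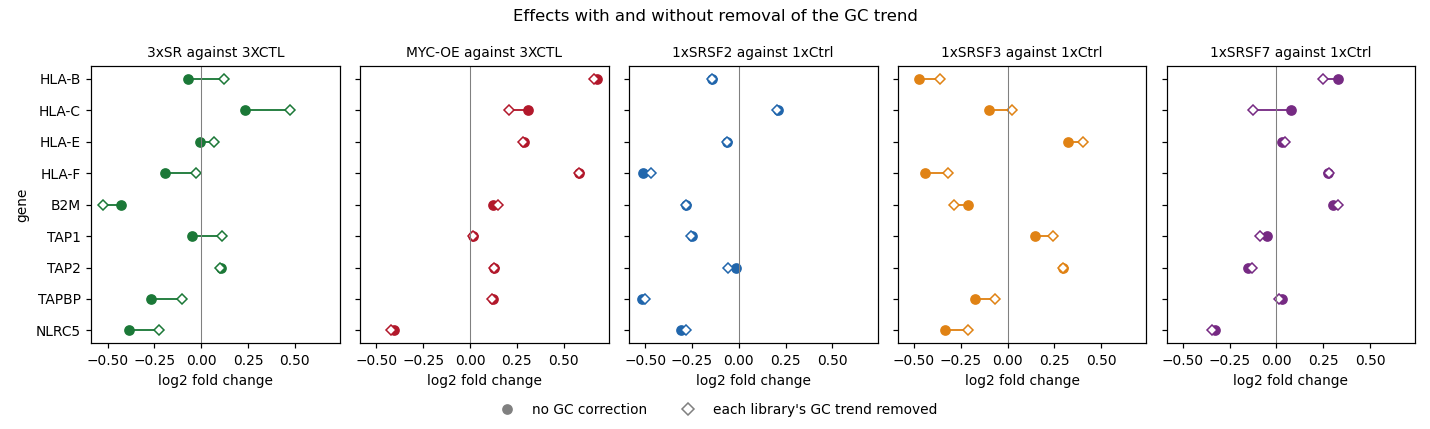
log2 fold change of each member with no GC correction (circles) and with every library's GC trend removed (diamonds), for the 5 lines against their controls. The widest shift is that of HLA-C in 3xSR, which moves from 0.23 to 0.48, while in 1xSRSF2 the symbols nearly coincide and HLA-B in MYC-OE moves from 0.68 to 0.66.

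Lines of one table were then compared with each other, so that the control libraries' levels do not enter. Between MYC-OE and 3xSR 5 of 9 members were called, all higher in MYC-OE, where 34.9% of genes were called, 17.3% higher and 17.6% lower. HLA-B was 1.68-fold higher (log2 fold change 0.75, SE 0.072, adjusted p = 1.8e-05), and HLA-F 1.72-fold (log2 fold change 0.78, SE 0.13, adjusted p = 0.0016). B2M was 1.47-fold higher (log2 fold change 0.55, SE 0.077, adjusted p = 2.3e-04). TAPBP (0.39) and HLA-E (0.30) were the other two. All 5 stood with the GC trend removed, with B2M at 0.68 and HLA-B at 0.54. HLA-C, TAP1, TAP2 and NLRC5 were not called between these lines, and the 95% interval of the NLRC5 difference was -0.21 to 0.17.

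Between 1xSRSF3 and 1xSRSF7 6 members were called, 3 in each direction, with 35.2% of genes called, 17.8% higher and 17.3% lower. HLA-B was 1.74-fold lower in 1xSRSF3 (log2 fold change -0.80, SE 0.058, adjusted p = 4.7e-07), HLA-F 1.64-fold lower (log2 fold change -0.71, SE 0.20, adjusted p = 0.018) and B2M 1.43-fold lower (log2 fold change -0.52, SE 0.083, adjusted p = 3.4e-04). TAP2 was 1.37-fold higher in 1xSRSF3 (log2 fold change 0.45, SE 0.064, adjusted p = 1.3e-04), and HLA-E (0.29) and TAP1 (0.20) were higher as well. In these 2 lines, then, HLA-B, HLA-F and B2M stood on the opposite side from both transporter genes and HLA-E. The HLA-B, B2M and TAP2 calls stood under every alternative. With no filter on low counts the HLA-E, TAP1 and HLA-F calls were lost, and with total counts alone those of HLA-E and TAP1. The HLA-E call was also lost with a minimum of 10 counts in every library and without any single library of these groups, the TAP1 call without 1xSRSF3 replicate 1 or 3 or 1xSRSF7 replicate 2 or 3, and the HLA-F call without any single library but 1xSRSF7 replicate 2, so that 3 members remained called without 1xSRSF3 replicate 1 or 3 or 1xSRSF7 replicate 3.

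The libraries labelled 1xSRSF2 had lower levels than 1xSRSF7 for 5 members (24.2% of genes called, 11.5% higher and 12.8% lower): HLA-B (-0.47, SE 0.058, adjusted p = 1.0e-04), B2M (-0.58), TAPBP (-0.55), HLA-F (-0.79) and TAP1 (-0.20). The calls of HLA-B, B2M and TAPBP stood under every alternative. TAP1 was lost with the GC trend removed (-0.17, adjusted p = 0.11), with upper-quartile scaling and without 1xSRSF7 replicate 1, and HLA-F with no filter and without any single library but 1xSRSF7 replicate 2. Against 1xSRSF3 they differed in 6 members (26.8% of genes, 12.6% higher and 14.1% lower). HLA-B (0.33) and HLA-C (0.31) were higher in 1xSRSF2, and both calls were lost with the GC trend removed (adjusted p = 0.092 and 0.61). TAP1 (-0.40), HLA-E (-0.39), TAPBP (-0.35) and TAP2 (-0.31) were lower in 1xSRSF2. The TAP1 and TAP2 calls stood under every alternative, and those of HLA-E and TAPBP were lost with no filter (TAPBP also with total counts alone) and without any single library of these groups, with adjusted p up to 0.17. NLRC5 was not called between any 2 of the 3 single lines, with differences between -0.0046 and 0.025.

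Whether the 3xSR effect differed from a single line's effect was tested in 1 fit over both tables, as a difference of differences. Against 1xSRSF3, HLA-B (0.42, SE 0.093, adjusted p = 0.0034) and HLA-C (0.35, SE 0.10, adjusted p = 0.02) were called, both positive, with 17.8% of 25013 genes called, 10.8% positive and 7.02% negative. Against 1xSRSF7 B2M differed most (-0.73, SE 0.11, adjusted p = 9.2e-05), being lower in 3xSR and higher in 1xSRSF7, each against its control. HLA-B (-0.39, SE 0.092, adjusted p = 0.0038) and TAP2 (0.27, SE 0.083, adjusted p = 0.023) were called too, with 24.6% of genes called, 13.6% positive and 10.9% negative. Against 1xSRSF2, 0 of 9 members were called by edgeR, DESeq2 or limma-voom, and 1, TAP1, had an unadjusted p under 0.05 (21.9% of genes called, 13.3% positive and 8.53% negative). The TAP1 difference was 0.21 (95% interval 0.05 to 0.37, adjusted p = 0.056). With the GC trend removed edgeR called 4 members against 1xSRSF2, which were not followed singly, so the count of 0 depends on that setting. Against the sum of the 3 single effects also 0 were called by the 3 tools, and 1, NLRC5, had an unadjusted p under 0.05 (19.9% of genes called, 11.3% positive and 8.59% negative). The NLRC5 difference from the sum was 0.62 (95% interval 0.10 to 1.13, adjusted p = 0.09), where the median over all genes was 0.14. With the GC trend removed edgeR called 2 members against the sum, also not followed singly. Standard errors against the sum were larger than against 1xSRSF2 for every member, from 0.14 (TAP1) to 0.50 (HLA-F) beside 0.077 and 0.27. The HLA-F interval against the sum was the widest (-0.53 to 1.59), and took in 0. Each single effect in the sum is taken against the same 1xCtrl libraries. With this spread, 0 calls do not show that the single effects add up. Of the calls in the main fit, HLA-B against 1xSRSF3 and B2M against 1xSRSF7 stood under every alternative. HLA-B against 1xSRSF7 was lost with the GC trend removed (-0.16, adjusted p = 0.33), as were HLA-C (0.45, adjusted p = 0.26) and TAP2 (0.24, adjusted p = 0.054). HLA-C was lost as well without 3XCTL replicate 2, 3xSR replicate 1 or 3, 1xCtrl replicate 3 or 1xSRSF3 replicate 3, and TAP2 with no filter and without 3XCTL replicate 2, 3xSR replicate 2 or 3, or any 1xSRSF7 library. The test takes whatever separates the 2 tables to act equally on a line and its control, which was not tested.

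The wider pathway was read from lists of genes, of which some called genes are named because their number was small, after their values were seen. Unlike those of the members, these calls are given from the main analysis alone. How far they depend on GC content or on single libraries is not shown here. Counts of called genes are to be read against the shares of all genes called, 29.0% in 3xSR, 35.3% in MYC-OE, 23.5% in 1xSRSF2, 29.2% in 1xSRSF3 and 17.3% in 1xSRSF7. The class I-like list holds relatives of class I molecules, among them ligands of the NKG2D receptor (MICA, MICB and the ULBP genes). All 10 of its genes passed the filter. In MYC-OE 10 were called, 9 higher and 1 lower, with a median log2 fold change of 0.49 against -0.0046 over all genes. ULBP1, a stress-induced NKG2D ligand, was at 1.802, 1.797 and 1.79 CPM in 3XCTL and 21.5, 20.8 and 19.3 CPM in MYC-OE, 11.4-fold higher (log2 fold change 3.52, SE 0.081, adjusted p = 1.5e-10). CD1D, which presents lipids to NKT cells, rose 5.503-fold from a low level (0.301 to 0.406 CPM in 3XCTL, 1.79 to 1.93 CPM in MYC-OE). The one that fell was MICA (-0.17, adjusted p = 0.035). In 3xSR 6 were higher and 1 lower (median 0.34). ULBP1 led again, at 5.43, 5.08 and 5.54 CPM, 2.98-fold higher (log2 fold change 1.57, SE 0.077, adjusted p = 5.3e-08), and HLA-G, a nonclassical chain best known from trophoblast, rose 1.47-fold. The control groups themselves differed for these genes. Mean ULBP1 was 1.797 CPM in 3XCTL, 5.35 in 3xSR and 5.55 in 1xCtrl, and mean HLA-G 20.0, 29.5 and 31.4. The 3xSR rises thus rest on the low 3XCTL levels, and the levels reached were near those of the other control.

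In the second table the class I-like list gave 5 higher and 3 lower calls in 1xSRSF2 (median 0.20), 1 higher and 2 lower in 1xSRSF3 (-0.083) and 3 higher and 1 lower in 1xSRSF7 (0.15). ULBP1 was at 5.91, 5.22 and 5.53 CPM in 1xCtrl and 11.3, 10.8 and 11.1 CPM in 1xSRSF7, 2.001-fold higher (log2 fold change 1.00, SE 0.11, adjusted p = 1.0e-04). In the libraries labelled 1xSRSF2 it was 1.501-fold higher, and in 1xSRSF3 it was not called (-0.034, adjusted p = 0.86). CD1D was higher in 1xSRSF2 (0.54) and 1xSRSF7 (1.09), and MICA lower in 1xSRSF7 (-0.30, adjusted p = 0.0044). HFE, the class I-like regulator of iron uptake, fell in 1xSRSF3 from 69.6 ± 3.97 to 44.98 ± 1.49 CPM (SD, n = 3; log2 fold change -0.62, SE 0.061, adjusted p = 1.1e-05). HLA-G rose in 1xSRSF3 by 1.47-fold, with 1xCtrl at 27.05, 42.9 and 24.2 CPM and replicate 2 high there too.

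The peptide generation list holds the interferon-inducible proteasome subunits PSMB8, PSMB9 and PSMB10, the activator subunits PSME1 and PSME2, and the trimming peptidases ERAP1 and ERAP2. It had 3 of 7 called lower in 3xSR (PSMB8, PSMB9 and PSME1, list median -0.17). In MYC-OE 3 were called higher (PSMB9, PSME1 and PSME2, median 0.13). In 1xSRSF2 2 were called lower (PSMB9 and ERAP1, median -0.22), and in 1xSRSF7 3 higher (PSMB8, PSMB9 and PSME1, median 0.17). In 1xSRSF3 edgeR called 0, with 2 at an unadjusted p under 0.05. PSMB9, whose gene lies beside TAP1, was at 17.9, 15.4 and 18.5 CPM in 3XCTL and rose to 21.7, 24.6 and 22.6 CPM in MYC-OE (log2 fold change 0.41, SE 0.078, adjusted p = 0.0015). It fell in 3xSR (log2 fold change -0.27, SE 0.078, adjusted p = 0.021) and in 1xSRSF2 (log2 fold change -0.33, SE 0.10, adjusted p = 0.025). In 1xSRSF7 it was at 25.6, 24.2 and 24.7 CPM, above every 1xCtrl library (log2 fold change 0.64, SE 0.10, adjusted p = 0.001). Its direction was that of HLA-B in MYC-OE and 1xSRSF7. PSMB8, like PSMB9, was called lower in 3xSR (-0.21) and higher in 1xSRSF7 (0.17). ERAP1, the peptidase that trims peptides to fit class I, fell in 1xSRSF2 from 98.9 ± 10.4 to 71.4 ± 0.839 CPM (SD, n = 3; log2 fold change -0.46, SE 0.078, adjusted p = 9.7e-04).

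Of the 4 loading chaperones (CALR, CANX, PDIA3 and TAPBPL), 3 were called higher in MYC-OE, 1 higher and 2 lower in 3xSR, and 1 in each direction in 1xSRSF2 and in 1xSRSF3. In 1xSRSF7 edgeR called 0, and 0 had an unadjusted p under 0.05. TAPBPL, the tapasin-related peptide editor TAPBPR, was the lowest of them in 3xSR (-0.41), 1xSRSF2 (-0.49) and 1xSRSF3 (-0.44). The edgeR adjusted p lay between 0.018 and 0.026. Its 3xSR libraries overlapped 3XCTL, and its 1xCtrl libraries were at 7.98, 10.4 and 6.55 CPM, with replicate 2 high. PDIA3, the oxidoreductase ERp57 of the loading complex, was higher in 1xSRSF2 (log2 fold change 0.27, SE 0.076, adjusted p = 0.022). Among the 4 genes of interferon gamma reception (IFNGR1, IFNGR2, JAK1 and JAK2), 2 were called higher in 3xSR and in MYC-OE, 1 in 1xSRSF3 and 1 in 1xSRSF7. In 1xSRSF2 edgeR called 0, and 0 had an unadjusted p under 0.05. IFNGR1, the ligand-binding chain, was higher in 3xSR (0.30), MYC-OE (0.19) and 1xSRSF3 (0.44), and IFNGR2, the accessory chain, in 3xSR (0.41), MYC-OE (0.76) and 1xSRSF7 (0.47).

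Among 13 transcriptional regulators of the pathway, 3 were called higher and 1 lower in 3xSR, 3 and 4 in MYC-OE, 0 and 3 in 1xSRSF2, 2 and 2 in 1xSRSF3, and 1 and 1 in 1xSRSF7, with medians between -0.017 and 0.066. The called number was 4 of 13 in 3xSR (29.0% of all genes), 7 in MYC-OE (35.3%), 3 in 1xSRSF2 (23.5%), 4 in 1xSRSF3 (29.2%) and 2 in 1xSRSF7 (17.3%), near the share over all genes except for the higher count in MYC-OE. IRF1, which binds interferon response elements, was at 25.5, 27.6 and 23.1 CPM in 1xCtrl and 37.9, 36.98 and 35.2 CPM in 1xSRSF7 (log2 fold change 0.54, SE 0.073, adjusted p = 5.3e-04). It was higher in MYC-OE (log2 fold change 0.27, SE 0.051, adjusted p = 0.0015). It was lower in 1xSRSF2 (log2 fold change -0.34, SE 0.073, adjusted p = 0.0045) and 1xSRSF3 (log2 fold change -0.30, SE 0.073, adjusted p = 0.008). The groups did not overlap in any of these. IRF1 thus had the sign of HLA-B in each of the 4 lines in which IRF1 was called, although HLA-B itself was not called in 1xSRSF2. Other members did not all share that sign. In 1xSRSF3 2 members were called higher (HLA-E and TAP2) and 2 lower (HLA-B and NLRC5). NLRC5 was called lower in MYC-OE and 1xSRSF7, against 4 and 2 members called higher. A link between IRF1 and the members was not tested. RFX5, a subunit of the RFX complex on class I and class II promoters, was lower in 3xSR (log2 fold change -0.22, SE 0.046, adjusted p = 0.0037) and MYC-OE (log2 fold change -0.24, SE 0.046, adjusted p = 0.0015). RFX5 was not called in the single lines. NFKB1 was lower in MYC-OE (-0.25) and higher in 1xSRSF3 (0.48). NFYA, a subunit of the factor that binds CCAAT boxes, was lower in MYC-OE (-0.18), RFXAP lower in 1xSRSF2 (-0.41) and STAT2 lower in 1xSRSF7 (-0.35).

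Of 8 class II pathway genes 6 were tested in each table. In MYC-OE 5 were called higher (median 1.07), in 3xSR 2 higher (HLA-DPA1 and HLA-DPB1) and 2 lower (CD74 and HLA-DMA), in 1xSRSF2 2 lower (CD74 and HLA-DMA), in 1xSRSF3 2 lower (HLA-DMA and HLA-DPB1), and in 1xSRSF7 2 higher (CD74 and HLA-DPB1). CD74, the invariant chain, was at 54.5, 48.02 and 58.3 CPM in 3XCTL and 83.2, 86.7 and 83.3 CPM in MYC-OE (log2 fold change 0.65, SE 0.07, adjusted p = 2.1e-05), and it was lower in 3xSR (log2 fold change -0.33, SE 0.07, adjusted p = 0.0037). HLA-DPA1, the alpha chain of HLA-DP, was at 0.869 to 1.13 CPM in 3XCTL and 2.91 to 3.16 CPM in MYC-OE, a rise of 1.64 on the log2 scale, and rose by 0.73 in 3xSR. Its 3xSR mean of 1.62 CPM was near the 1.68 CPM of 1xCtrl. HLA-DPB1, its partner, rose by 0.79 in 1xSRSF7. HLA-DMA, which helps to load class II molecules, was lower in 3xSR (-0.40) and in 1xSRSF3 (log2 fold change -0.72, SE 0.082, adjusted p = 3.4e-05). HLA-DRA, the chain common to HLA-DR molecules, stayed at or under 0.0664 CPM in every library, and the class II transactivator CIITA at or under 0.735 CPM.

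**Figure D4:**
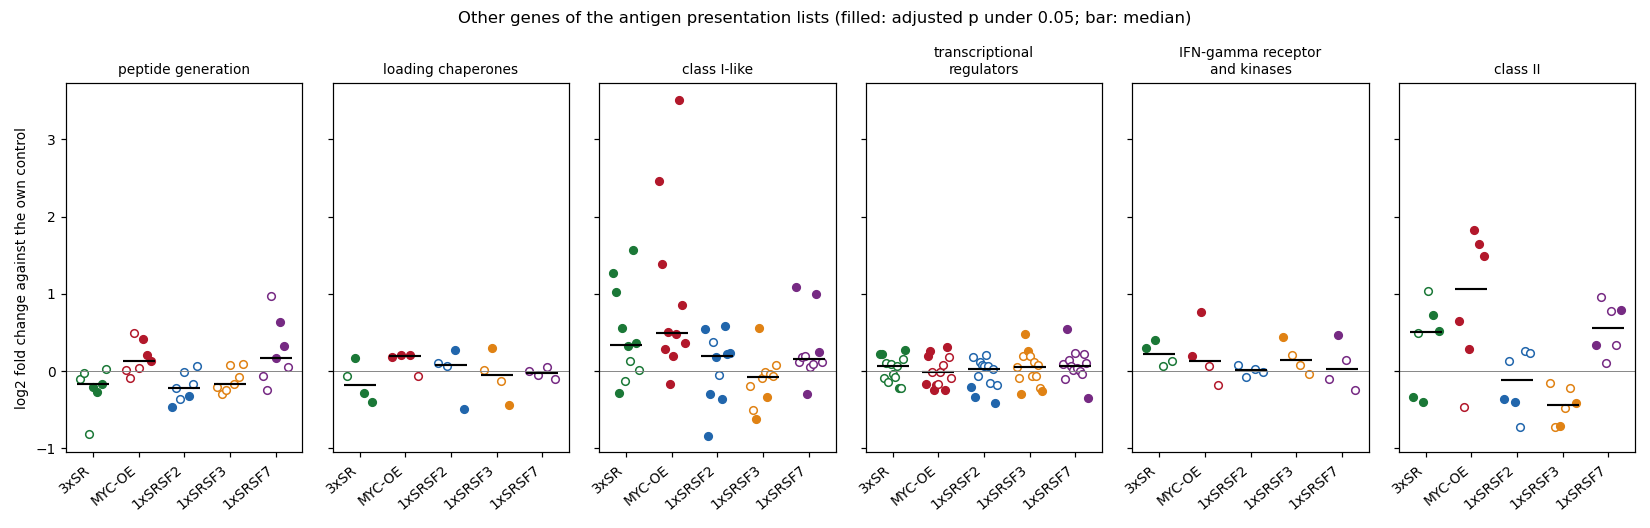
log2 fold change of every tested gene of 6 antigen presentation lists in the 5 lines against their controls; filled points have an adjusted p under 0.05 and black bars are list medians. ULBP1 stands highest in the class I-like panel for MYC-OE at 3.52 and 3xSR at 1.57, and the class II median is 1.07 in MYC-OE.

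As a description, each member's log2 CPM was centred on the mean of its table's control and correlated across the 21 libraries, which share culture, control and GC trends within groups. HLA-B and HLA-F gave a Pearson r of 0.859, HLA-F and TAPBP 0.883, HLA-E and TAP2 0.751, and HLA-E and TAP1 0.691. HLA-B and TAP1 gave 0.0091, and HLA-B and NLRC5 -0.0912. Of 11474 genes with a mean of at least 5 CPM, those most like HLA-B were PSAP (0.965), CD9 (0.965), SLC2A3 (0.964), LRG1 (0.958) and NGFR (0.955). Those most like TAP1 were EXTL3 (0.946), EVC (0.915), ESYT2 (0.898), ADCY3 (0.889) and GPR107 (0.881).

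Levels of different genes were compared per kilobase of the longest coding transcript, as means over the 21 libraries. B2M led at 889.8 CPM per kb, followed by HLA-E at 96.9, TAP2 at 63.96, HLA-B at 62.6, TAPBP at 52.8, HLA-C at 49.97, TAP1 at 48.04, HLA-F at 16.8 and NLRC5 at 3.45. B2M, which pairs with every heavy chain, thus exceeded each single chain on this scale. Dividing by all annotated exon bases instead gave 249.6 for B2M, 84.7 for HLA-E, 56.9 for TAP2, 39.2 for TAPBP, 31.7 for HLA-B and 1.899 for NLRC5. The order of HLA-B and TAPBP depends on that choice. Over the 21 libraries the highest CPM of a member was 1.41 times the lowest for TAP1 and TAP2, 1.49 for HLA-C and HLA-E, 1.57 for NLRC5, 1.72 for B2M, 1.81 for TAPBP, 1.96 for HLA-B and 2.26 for HLA-F.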

How the data were processed

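RNA-seq of 21 HCC1806 libraries was deposited as 2 tables of whole, unscaled read counts per Ensembl gene, and these deposited counts were the unit used. Reads were handled with Trimmomatic 0.39, STAR and StringTie 2.1.3b on GRCh38.p13, per the submitters' processing notes. The counting step, its strand setting and the annotation are not given in the sources used here. Identifiers of HLA-B, HLA-E, HLA-F, B2M and TAP2 carried later versions in the counts than in GENCODE 29. Spans, overlaps, shared windows and lengths, taken from GENCODE 29, may thus differ from those used in the counting. Groups were taken from the labels. The members and lists were chosen with earlier results of these data known. Each table was fitted once with edgeR 4.0.16 in R 4.3.3 (TMM, filterByExpr with a minimum count of 10 and total of 15, robust quasi-likelihood), and a joint fit of 7 groups tested differences between effects. Benjamini-Hochberg adjustment ran over all genes tested, with a threshold of 0.05. A standard error is the log2 fold change over the square root of F. Alternatives used DESeq2 1.42.0, limma 3.58.1, other scalings and filters, removal of each library's GC trend over 50 bins, a replicate block, the 2 groups alone and each library left out. Summing TAP2 with AL669918.1 and dividing by all exon bases were added after seeing the data.

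Symbols came from a separate list of gene names, which gave one for 60340 of 60668 identifiers. Positions, lengths, GC content and overlaps came from GENCODE 29, which held 58561. Promoters came from RefSeq on GRCh38.p14. Named in each comparison were the 9 members, the 3 highest and 3 lowest called genes of the pathway lists with a mean of at least 1 CPM, and IRF1, RFX5, PSMB8 and PSMB9. A further gene of these lists is not reported here and was left out of their counts and medians. Genes most like HLA-B and TAP1 were the 5 with the highest correlation of log2 CPM (prior count 2). Marker lists gave summed levels of 5060 to 6168 CPM for basal epithelium, 105 to 192 for ESR1, PGR and ERBB2, 7.84 to 38.8 for leukocytes and 6.58 to 17.5 for fibroblast and endothelium. On counts simulated for 3xSR against 3XCTL over 22590 genes, 63.2% of 193 genes changed 2-fold were called with the right sign, 98.9% of the 95 above 5 CPM, and 6.87% of calls were false. Every member's change against a control was under 2-fold, and the simulation held no GC trends. It therefore gives no power for changes of the members' size. No pair of replicates agreed within sampling noise, the chi-square per degree of freedom being 12.7 to 214.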

Additional observations from a re-analysis of the deposited data

Results flagged for a closer look

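The effect of 3xSR differed from that of a single line, by the test of the difference in 1 fit over both tables, for 5 member values. Relative to 1xSRSF3 the difference was 0.42 for HLA-B and 0.35 for HLA-C on the log2 scale. Relative to 1xSRSF7 it was -0.39 for HLA-B, -0.73 for B2M and 0.27 for TAP2. With the GC trend removed, HLA-B relative to 1xSRSF3 (0.47, adjusted p = 0.0048) and B2M (-0.86, adjusted p = 4.7e-08) were called by edgeR, and HLA-C (0.45, adjusted p = 0.26), HLA-B relative to 1xSRSF7 (-0.16, adjusted p = 0.33) and TAP2 (0.24, adjusted p = 0.054) were not.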

How the results depend on the processing

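Counts of members called against a control moved by over 1.5 times with the GC trend removed in 1xSRSF3 (7 against 4), and with the 2 groups fitted alone in 1xSRSF3 (1) and 1xSRSF7 (1 against 3). For 3xSR minus 1xSRSF7 the GC setting gave 1 against 3. For 3xSR minus 1xSRSF2, where 0 were called, total counts alone gave 1, a minimum of 10 counts in every library 1 and GC removal 4, and for 3xSR minus the sum of single effects upper-quartile scaling gave 1, total counts 1 and GC removal 2. The cause was not tested.

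With 1 library left out, counts ran from 2 to 6 in 3xSR, 1xSRSF3 and 1xSRSF7, 3 to 6 in 1xSRSF2 and 5 to 6 in MYC-OE. They were 5 for MYC-OE against 3xSR, 4 for 1xSRSF2 against 1xSRSF3, and 3 to 5 for 1xSRSF2 and for 1xSRSF3 against 1xSRSF7. The 3xSR effect gave 0 to 1 minus 1xSRSF2 or the sum, 1 to 4 minus 1xSRSF3 and 2 to 5 minus 1xSRSF7.

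Signs turned for values that were not called. GC removal turned HLA-B (0.12), HLA-E (0.069) and TAP1 (0.11, adjusted p = 0.045, by edgeR) in 3xSR, and HLA-C in 1xSRSF3 (0.025) and 1xSRSF7 (-0.12). Total counts turned TAP1 in MYC-OE (-0.018) and PSMB8 in 1xSRSF3 (-0.028), and upper-quartile scaling HLA-E (-0.0024) and TAPBP (-0.0030) in 1xSRSF7. With 1 library left out, values of either sign were found for HLA-E in 1xSRSF2 (-0.21 to 0.094), 1xSRSF7 (-0.10 to 0.21) and 3xSR (-0.087 to 0.047), PSMB8 in 1xSRSF3 (-0.0034 to 0.069), TAP1 in 3xSR (-0.0997 to 0.010) and MYC-OE (-0.033 to 0.085), TAP2 in 1xSRSF2 (-0.12 to 0.048) and TAPBP in 1xSRSF7 (-0.099 to 0.20).

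Replicate numbers did not pair the libraries, the mean correlation of same-numbered deviations being -0.10 to 0.0068. The replicate block gave 3 calls against 4 in 1xSRSF2 and 5 against 6 for 1xSRSF3 against 1xSRSF7, losing B2M (adjusted p = 0.052) and HLA-E (adjusted p = 0.054), by edgeR.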
